A study of Homo sapiens with 8 samples.

Results

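Transforming growth factor beta (TGF-beta) signaling was described through 10 genes, the ligand genes TGFB1, TGFB2, TGFB3 and INHBA, the receptor genes TGFBR1 and TGFBR2, the signal transducer SMAD3 and the inhibitors SMAD7, SMURF2 and SKIL. They were taken by symbol through a rule that uses no measured value, although the set was proposed with earlier results of these data known, and are 10 of the 19043 genes tested on the arrays. A549, an established line from a human lung carcinoma, received the vehicle or EEDS at 1.25, 5 or 20 μg/mL (the ethanol extract of Descurainia sophia seeds), and in a separate series the vehicle or 3.75, 15 or 60 nM of helveticoside, a cardiac glycoside found in those seeds. The 8 samples carried no genetic change or other agent, the paper names DMSO as the solvent of the extract, and the sample labels give 48 h of exposure where the paper's methods give a shorter one. RNA of 3 cultures was pooled for each condition and hybridized to 1 one-colour Agilent whole human genome array, so each dose had 1 array and no error between cultures could be measured.

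TGF-beta ligands are secreted in a latent form that must be activated before they bind. The bound type II receptor (TGFBR2) phosphorylates the type I receptor (TGFBR1), which phosphorylates SMAD2 and SMAD3, and these move to the nucleus with SMAD4 and switch genes on or off. The pathway restrains itself, since its own targets include SMAD7, which occupies the receptor and recruits the ubiquitin ligases SMURF1 and SMURF2, and SKIL (SnoN), which binds SMADs on DNA as a corepressor. In lung epithelium TGF-beta is known for growth arrest and for the change of epithelial cells toward a mesenchymal state.

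Across the arrays the inhibitors and SMAD3 stood higher in treated cells at every dose of both agents. The ligand gene TGFB2, the receptor gene TGFBR1 and INHBA at its dim values did so too. The ligand gene TGFB1 and the receptor gene TGFBR2 showed no dose trend. SMAD3, SMAD7 and SMURF2 passed the test for a rising trend with EEDS and with helveticoside. SKIL and TGFB2 passed it with EEDS alone, and the difference between the agents did not pass a test for either gene. TGFB3 and INHBA were not well above background on any array.

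The promoters of 4 members are shown because they stand for both kinds of member: SKIL, SMURF2 and SMAD7, the inhibitors, and TGFB1, a ligand gene with no trend. Each run holds the 250 bases before the annotated start in the strand of the gene, 5′ to 3′, outside the gene itself, from RefSeq promoter windows of GRCh38.p14 (the first window listed for each gene). They lie at chr3:170357465-170357714 (plus strand) for SKIL, chr17:64662308-64662557 (minus strand) for SMURF2, chr18:48950966-48951215 (minus strand) for SMAD7 and chr19:41353923-41354172 (minus strand) for TGFB1. Capitals mark a match to a cAMP response element (TGACGTCA) in SKIL and to the EGR1 site (GCGTGGGCG, here on the opposite strand) in TGFB1.
SKIL: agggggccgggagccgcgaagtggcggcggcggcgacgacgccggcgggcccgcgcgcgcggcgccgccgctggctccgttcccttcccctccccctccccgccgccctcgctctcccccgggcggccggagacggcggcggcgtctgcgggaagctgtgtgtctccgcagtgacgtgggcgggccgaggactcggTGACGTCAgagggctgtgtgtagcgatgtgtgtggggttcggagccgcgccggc
SMURF2: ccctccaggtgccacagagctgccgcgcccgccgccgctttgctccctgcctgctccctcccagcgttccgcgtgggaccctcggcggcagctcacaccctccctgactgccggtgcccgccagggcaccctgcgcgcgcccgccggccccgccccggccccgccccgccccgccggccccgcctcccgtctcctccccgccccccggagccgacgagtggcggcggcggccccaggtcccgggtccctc
SMAD7: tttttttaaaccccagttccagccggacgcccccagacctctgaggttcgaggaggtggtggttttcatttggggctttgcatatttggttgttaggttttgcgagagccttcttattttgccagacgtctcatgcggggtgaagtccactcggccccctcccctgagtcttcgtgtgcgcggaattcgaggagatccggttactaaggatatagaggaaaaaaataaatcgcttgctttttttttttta
TGFB1: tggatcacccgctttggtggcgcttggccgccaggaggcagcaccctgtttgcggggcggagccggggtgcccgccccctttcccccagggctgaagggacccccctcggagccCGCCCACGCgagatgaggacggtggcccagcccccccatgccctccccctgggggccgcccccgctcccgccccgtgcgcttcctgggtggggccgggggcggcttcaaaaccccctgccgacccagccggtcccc

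The cAMP response element of SKIL began at position -54 from the start. The shares given here are over 27305 human windows of 300 bases (250 before and 50 after the start), the first listed for each gene. Of these, 1.98% held the cAMP response element on either strand. The EGR1 match of TGFB1 lay at position -136, and 0.784% of the first windows held one. The palindromic SMAD box (GTCTAGAC), present in 0.201% of the first windows, was in none of the 25 windows of the 10 members. The AP-1 site (TGAGTCA) was in 4.92% of the first windows. Among the members it occurred in the second window of TGFBR2 at position -6 and the third of SMAD3 at position -56. It was in no first window of a member, so that share and these matches are not like for like. Over all 25 windows 4 members held 1 of the 4 motifs searched, and the motifs did not overlap. The windows shown differed in base composition. SKIL had 79.0% G or C and 52 CpG pairs, SMURF2 79.3% and 36, TGFB1 77.3% and 28 and SMAD7 48.3% and 13. The median over the first windows was 58.3% and 14. These are descriptions of the letters and were not tied to the measurements.

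The median probe spot read 182 to 214 in the EEDS series and 223 to 278 in the helveticoside series, over a local background of 27 to 34, with no saturated spot. The share of probes well above background was 63.3% to 64.9% with EEDS and 54.5% to 59.5% with helveticoside. Of 10 markers of the A549 epithelium, 9 were well above background on all 8 arrays and SFTPB on none. Their summed signal fell from 1180045 and 1146116 on the controls to 678900 and 572561 at the top doses of EEDS and helveticoside. Of 10 markers of fibroblasts, leukocytes and endothelium, COL1A2, PDGFRB, DCN, CD3E, PECAM1 and VWF were above background on none of the arrays and PTPRC, CD14 and CDH5 on all. The sum of these markers lay between 952 and 3898 on the 8 arrays and was lower at the upper doses, mostly through CD14, which went from 2824 to 951.4 with EEDS and from 2500.0 to 514.9 with helveticoside. Whether the signal of PTPRC, CD14 and CDH5 came from the genes or from probe background was not tested. The part of these shifts in the results was not tested either, and in bulk RNA fewer cells of a type and less RNA per cell cannot be told apart. The controls of the series differed by over 2-fold for 10.4% of all genes and by at most 0.57 on the log2 scale for the 10 members, and since each agent was run as its own series, an effect of the series on a comparison of the agents cannot be told apart from one of the agent.

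The signals below are log2 values of the quantile-normalized intensity, in which 1 unit is a 2-fold difference, and each ratio is that of a dose to the vehicle control of its own series. With 1 array per dose a ratio has no test. The dose trend was tested with a limma fit over the 8 arrays, as a slope in log2 units per dose step (0 for the control to 3 for the top dose), with p-values adjusted over all 19043 genes and a threshold of 0.05. Spots of 1 probe on 1 array varied with an SD of 0.03 to 0.05 for TGFB1 and 0.05 to 0.07 for SMAD3 in log2 units, an error that holds for single arrays and not for cultures.

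**Figure D1:**
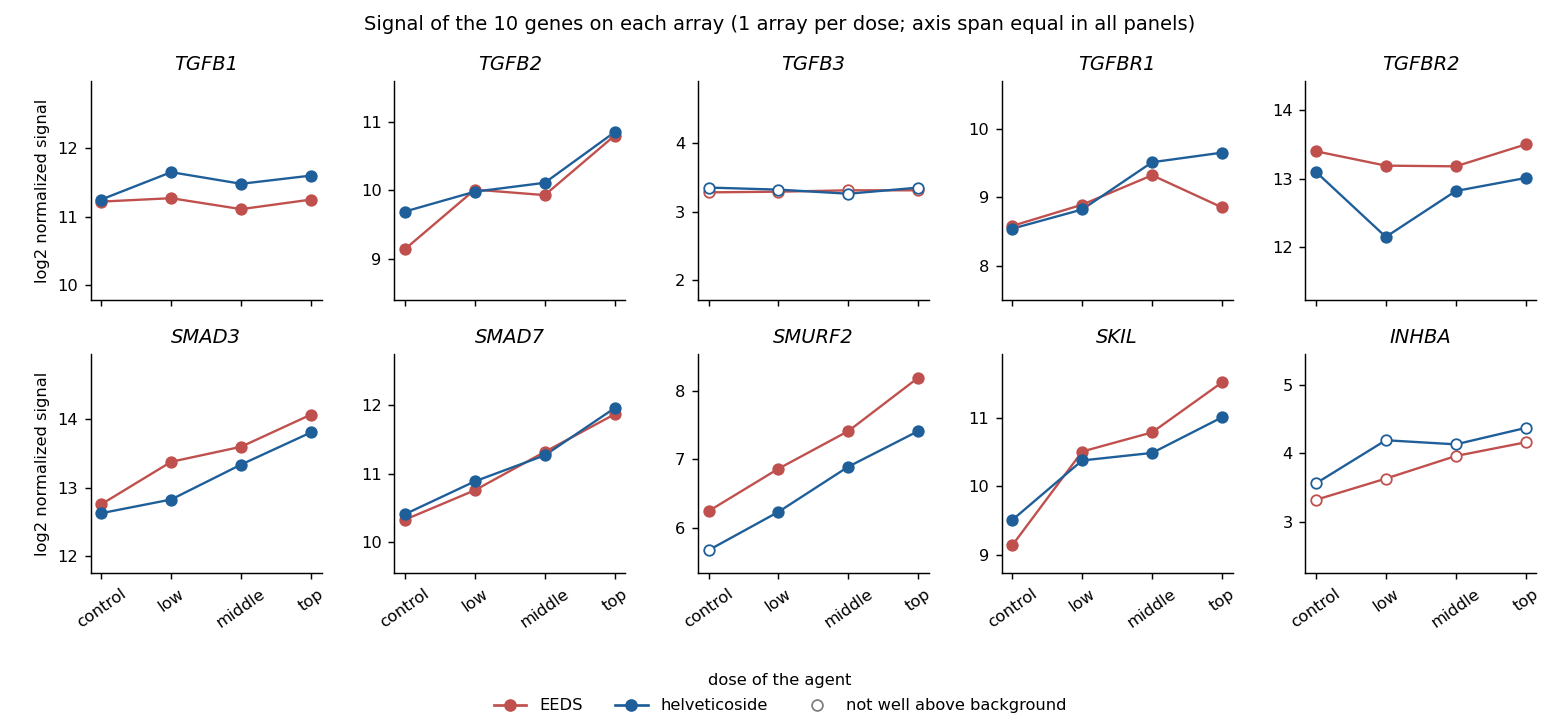
Log2 normalized signal of the 10 genes on each of the 8 arrays, with EEDS in red and helveticoside in blue, 1 point per array and the same axis span in every panel; open points were not well above background. SMAD3, SMAD7, SMURF2 and SKIL climbed at each dose step of both agents, and TGFB3 and INHBA were open on all arrays.

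Among the ligands, TGFB2 was the member with a dose-related difference. TGFB2 encodes the TGF-beta isoform that needs the coreceptor betaglycan to bind its type II receptor well. Its log2 signal was 9.14 on the EEDS control and 10.01, 9.93 and 10.80 at 1.25, 5 and 20 μg/mL, and 9.69 on the helveticoside control and 9.98, 10.11 and 10.85 at 3.75, 15 and 60 nM. All treated arrays lay above both controls. At the top doses TGFB2 was 3.17-fold higher with EEDS and 2.22-fold higher with helveticoside. The slope was 0.49 ± 0.11 (SE) with EEDS (adjusted p = 0.0381) and 0.36 ± 0.11 with helveticoside (adjusted p = 0.0905), so TGFB2 rose with EEDS and did not pass the test with helveticoside. With EEDS, 53% of the log2 difference of the top dose was present at 1.25 μg/mL and the step from 1.25 to 5 μg/mL was -0.09, while with helveticoside 25% was present at 3.75 nM. The controls differed by 0.56, with the EEDS control the lower, and with the other control in its place the top-dose difference was 1.11 for EEDS and 1.71 for helveticoside.

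TGFB1, which encodes the most widely expressed TGF-beta isoform, stayed near its controls. Its log2 signal was 11.22 on the EEDS control and 11.27, 11.11 and 11.25 at the rising doses, and 11.25 on the helveticoside control and 11.65, 11.48 and 11.60 at the rising doses. The 3 helveticoside doses all lay above the control, by 0.22 to 0.4, with no order by dose. The slopes were -0.01 ± 0.06 with EEDS (adjusted p = 1.0) and 0.09 ± 0.06 with helveticoside (adjusted p = 0.453), with 95% intervals of -0.17 to 0.15 and -0.07 to 0.25. TGFB3, the third isoform gene, read 3.26 to 3.35 on the 8 arrays and was not well above background on any, so no ratio is given. INHBA, which encodes the subunit of activin A, was also not well above background on any array and read 3.32, 3.63, 3.96 and 4.16 in the EEDS series and 3.56, 4.19, 4.13 and 4.37 in the helveticoside series. Its spots varied with an SD of 0.33 to 0.81 on the log2 scale within an array. The INHBA slope of 0.29 ± 0.08 with EEDS (adjusted p = 0.0654) and 0.24 ± 0.08 with helveticoside (adjusted p = 0.116) rests on these dim values.

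The receptor genes gave different pictures. TGFBR1, the type I receptor kinase, read 8.58 on the EEDS control and 8.89, 9.32 and 8.85 at the rising doses, and 8.54 on the helveticoside control and 8.82, 9.51 and 9.65 at the rising doses. All treated arrays were above their control, but with EEDS the middle dose was the highest and the top dose stood 1.21-fold above the control, while with helveticoside the top dose stood 2.16-fold above it. The slope was 0.12 ± 0.10 with EEDS (adjusted p = 0.498) and 0.40 ± 0.10 with helveticoside (adjusted p = 0.0674), and neither passed the test. TGFBR2, the type II receptor that binds the ligand, read 13.40, 13.19, 13.18 and 13.50 in the EEDS series from the control to the top dose, and 13.10, 12.15, 12.82 and 13.01 in the helveticoside series. The array at 3.75 nM was 1.94-fold below its control, a lower ratio than that of 95.3% of the other genes at that dose, and the higher doses were back near the control. The slopes of TGFBR2 were 0.03 ± 0.15 with EEDS (adjusted p = 0.981) and 0.04 ± 0.15 with helveticoside (adjusted p = 0.955). The 95% intervals of -0.36 to 0.42 and -0.35 to 0.43 are wide for both agents because the fit takes 1 spread over both series, including the array at 3.75 nM. The EEDS series itself lay between 13.18 and 13.50.

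SMAD3, the receptor-activated SMAD that carries the TGF-beta signal to DNA, rose with both agents. It read 12.76 on the EEDS control and 13.38, 13.60 and 14.07 at the rising doses, and 12.63 on the helveticoside control and 12.83, 13.34 and 13.81 at the rising doses. Each dose was higher than the one before it in both series. The top doses were 2.48-fold and 2.26-fold above the controls. The slope was 0.42 ± 0.05 with EEDS (adjusted p = 0.0154) and 0.40 ± 0.05 with helveticoside (adjusted p = 0.0198). The lowest dose already held 47% of the top-dose log2 difference with EEDS and 17% with helveticoside.

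SMAD7, the inhibitory SMAD, rose with both agents. Its log2 signal was 10.33 on the EEDS control and 10.76, 11.32 and 11.87 at the rising doses, and 10.41 on the helveticoside control and 10.89, 11.27 and 11.96 at the rising doses. The treated arrays did not overlap with either control. SMAD7 was 1.34-, 1.98- and 2.90-fold higher with EEDS and 1.4-, 1.81- and 2.93-fold higher with helveticoside. The slope was 0.52 ± 0.05 (adjusted p = 0.0132) and 0.50 ± 0.05 (adjusted p = 0.0165), respectively.

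SMURF2, the ubiquitin ligase that SMAD7 brings to the receptor, rose with both agents from a dim start. It read 6.24 on the EEDS control and 6.86, 7.41 and 8.19 at the rising doses, which makes it 1.54-, 2.25- and 3.86-fold higher. In the helveticoside series it read 5.67 on the control, where it was not well above background, and 6.23, 6.89 and 7.41 at the rising doses. Its helveticoside differences are therefore bounds within the normalization used here, at least 1.48-, 2.34- and 3.35-fold higher. Over the alternatives its top-dose log2 ratio with helveticoside was 1.07 to 1.74, and the value used here lay at the upper end. The slope was 0.64 ± 0.06 with EEDS (adjusted p = 0.0132) and 0.59 ± 0.06 with helveticoside (adjusted p = 0.0165), the latter fitted with the dim control at its measured value. With the deposited processed values the helveticoside slope was 0.37 and did not pass (adjusted p = 0.064).

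SKIL, the SMAD corepressor SnoN, had the highest top-dose ratio of the 10 members with EEDS. Against the other series' vehicle control SMURF2 lay above SKIL there, with log2 ratios of 2.52 and 2.01. With helveticoside SMAD7 (2.93-fold) and the bound of SMURF2 lay above SKIL. With the deposited values the top-dose log2 ratio of SMURF2 with helveticoside was 1.07, below that of SKIL, 1.33. SKIL read 9.14 on the EEDS control and 10.51, 10.79 and 11.52 at the rising doses. In the helveticoside series SKIL read 9.51 on the control and 10.38, 10.49 and 11.01 at the rising doses. Most of the difference came with the lowest dose, which held 57% of the top-dose log2 difference with EEDS and 58% with helveticoside, compared with 28% and 31% for SMAD7 and 32% with EEDS for SMURF2. With EEDS the shares of TGFB2 (53%) and SMAD3 (47%) were near that of SKIL, and with helveticoside they were lower (25% and 17%). SKIL was 2.58-, 3.14- and 5.20-fold higher with EEDS and 1.84-, 1.97- and 2.84-fold higher with helveticoside. At 20 μg/mL of EEDS 2.01% of all genes had a higher ratio, and at 60 nM of helveticoside 5.07%. The slope was 0.74 ± 0.12 with EEDS (adjusted p = 0.0197) and 0.46 ± 0.12 with helveticoside (adjusted p = 0.0606), so SKIL rose with EEDS and did not pass the test with helveticoside.

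**Figure D2:**
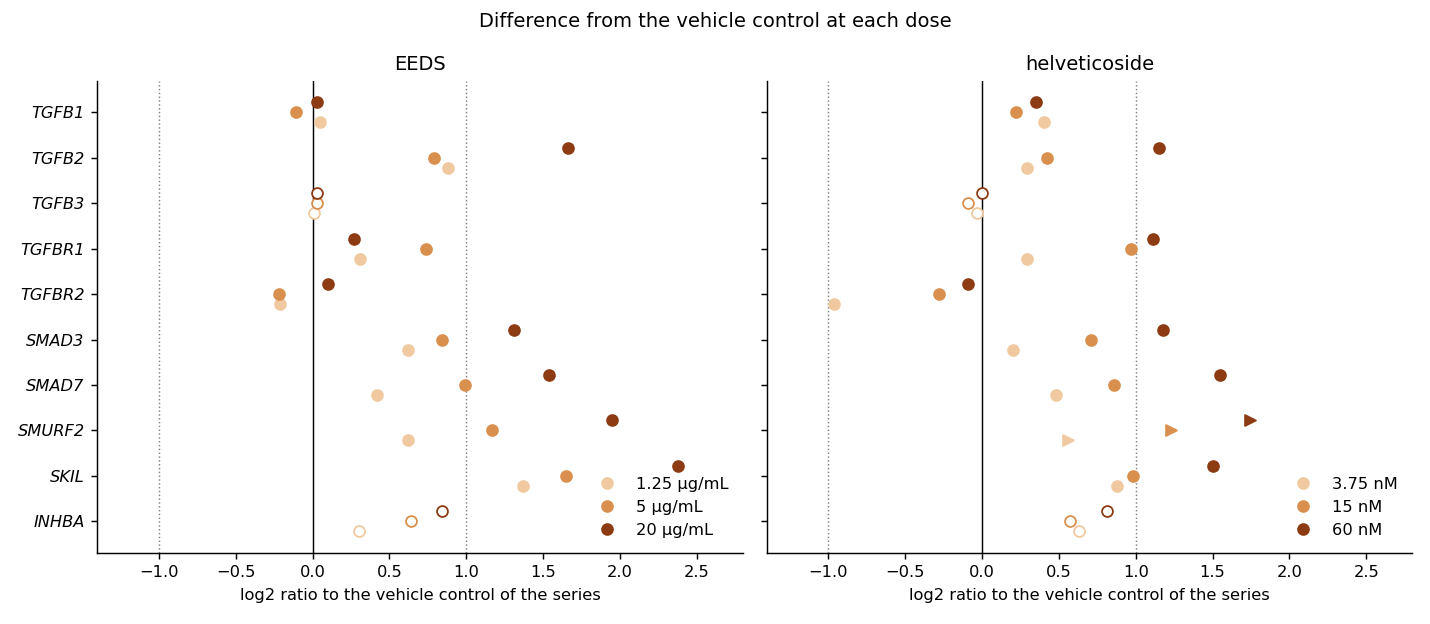
Log2 ratio of each dose to the vehicle control of its series (x axis) for the 10 genes, EEDS at left and helveticoside at right, darker for higher doses; dotted lines mark 2-fold, triangles are lower bounds and open circles had both arrays not well above background. At the top doses 5 genes with EEDS and 6 with helveticoside lay past the 2-fold line on the right and none on the left.

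Counted over the members, SKIL alone was more than 2-fold higher at 1.25 μg/mL of EEDS (4.22% of all genes were), SMURF2 and SKIL at 5 μg/mL (7.34% of all genes), and 5 of 10, TGFB2, SMAD3, SMAD7, SMURF2 and SKIL, at 20 μg/mL (13.3% of all genes). With helveticoside 0 members were more than 2-fold higher at 3.75 nM (3.38% of all genes), SMURF2 at 15 nM (7.08%) and 6 of 10 at 60 nM (10.8%), the same 5 and TGFBR1. None was more than 2-fold lower at either top dose, where 14.5% of all genes were with EEDS and 12.8% with helveticoside. The median log2 ratio of the 10 members went from 0.37 through 0.76 to 1.08 with EEDS and from 0.35 through 0.64 to 1.13 with helveticoside, against medians of all genes between -0.04 and 0.02. These medians include TGFB3 and INHBA at their dim values.

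A rising dose trend passed the test for 5 of 10 members with EEDS (7.26% of all genes) and for 3 of 10 with helveticoside (5.49%), and 0 members fell (7.85% and 5.81% of all genes did). SMAD3, SMAD7 and SMURF2 rose with both agents, as did 4.45% of all genes. These calls were lost when the lowest, the middle or the top dose of each series was left out, or only the 4 arrays of a series were fitted: 0 members passed then, and 0 of all genes did. At an unadjusted p under 0.05, SMAD3, SMAD7 and SMURF2 had positive slopes for both agents in all 4 of those fits, as did 3.29% of all genes. With all arrays, 6 members had a positive slope at an unadjusted p under 0.05 with EEDS (16.4% of all genes) and 7 with helveticoside (14.6% of all genes), the second count adding TGFBR1 and both including the dim INHBA. SMAD3, SMAD7, SMURF2 and SKIL were higher at each successive dose of both agents, a pattern of 6.97% of all genes. Including INHBA, 7 of 10 members lay above their control on all 6 treated arrays, compared with 17.1% of all genes.

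**Figure D3:**
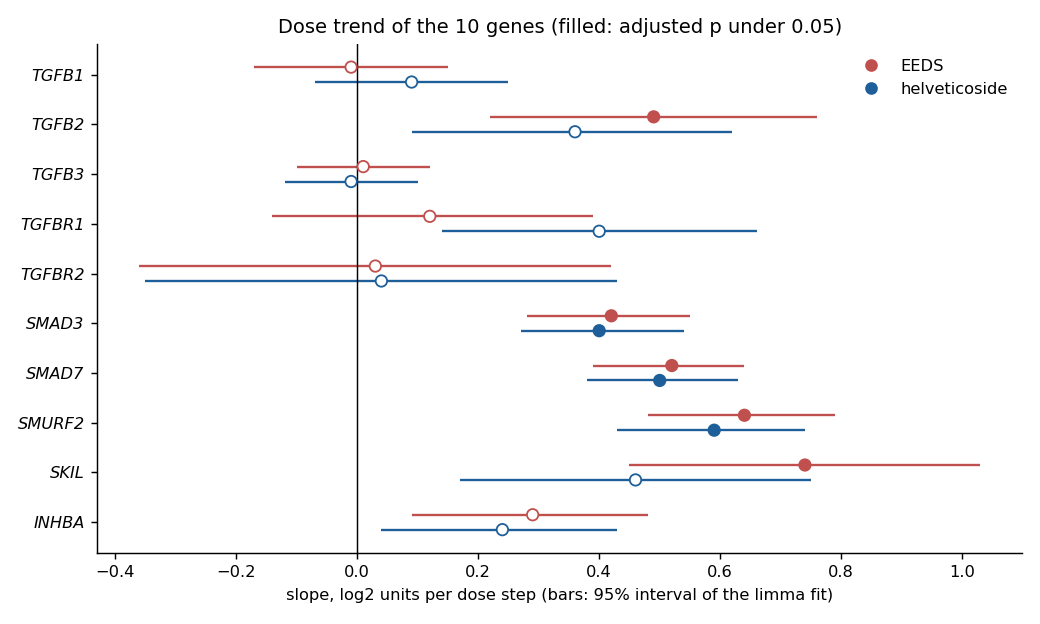
Slope of the dose trend in log2 units per dose step (x axis) of the 10 genes with the 95% interval of the limma fit over 8 arrays, EEDS in red and helveticoside in blue; filled points passed the adjusted p threshold of 0.05. SMAD3, SMAD7 and SMURF2 are filled for both agents, SKIL and TGFB2 for EEDS alone, and the intervals of the agents overlap for every gene.

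The agents were compared through the difference of their slopes, EEDS minus helveticoside, in the same fit. The slopes differed for 0 of the 10 members and for 0.0% of all genes, and at an unadjusted p under 0.05 for 525 genes and 0 members. The differences farthest from 0 were those of SKIL, 0.28 (95% interval -0.13 to 0.69), and TGFBR1, -0.28 (-0.65 to 0.09). The intervals were narrower for SMAD3 (-0.18 to 0.20), SMAD7 (-0.16 to 0.19) and SMURF2 (-0.17 to 0.27) and wider for TGFB2 (-0.24 to 0.51) and TGFBR2 (-0.56 to 0.54). The dose steps of an extract and of a pure compound are not matched amounts, and an interval that spans 0 does not show equal responses.

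The rest of the pathway was followed in 4 lists of other ligands and their activators, receptors and antagonists, SMADs and their regulators, and target genes, 75 genes of which were on the array. Of the 75, 17 rose and 3 fell with EEDS, beside 7.26% and 7.85% of all genes, and 15 rose and 3 fell with helveticoside, beside 5.49% and 5.81%. With both agents 14 rose, beside 4.45% of all genes. At the top doses 22 were more than 2-fold higher and 4 lower with EEDS (13.3% and 14.5% of all genes), and 17 higher and 7 lower with helveticoside (10.8% and 12.8%). Their median log2 ratios were 0.26 and 0.24.

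Of the 19 other ligand and activation genes, GDF15 alone passed the trend test, with both agents, a share near that of all genes (7.26% rising with EEDS and 5.49% with helveticoside). GDF15, a distant family member secreted by stressed cells, was 6.75-fold higher at the top dose of EEDS and 5.25-fold higher at that of helveticoside, with slopes of 0.94 ± 0.17 (adjusted p = 0.0249) and 0.91 ± 0.17 (adjusted p = 0.0317). The genes for the activators of latent TGF-beta did not pass. The log2 ratios at the top doses were 1.13 and 0.70 for ITGAV, the integrin alpha V chain, and 0.87 and 0.83 for THBS1, thrombospondin. ITGB8 and ITGB6, integrin beta chains in the same list, were named after their values were seen and were well above background on only 2 and 1 of the 8 arrays. At these dim values both were lower at the top dose of EEDS, ITGB8 by more than 2-fold. With helveticoside ITGB8 was lower and ITGB6 near its control. GDF11, a ligand of the activin type, had ratios of -0.82 and -1.01 and did not pass either. The median top-dose ratio of the list was 0.00 for both agents.

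Of the 13 other receptor and antagonist genes, FST and FSTL3 rose with both agents, ACVR2A rose with EEDS and BAMBI fell with both. That is 3 rising with EEDS and 2 with helveticoside (7.26% and 5.49% of all genes). The 1 that fell is a share near that of all genes (7.85% with EEDS and 5.81% with helveticoside). FST (follistatin) and FSTL3, secreted proteins that bind and neutralize activin, had top-dose log2 ratios of 2.35 and 2.32 with EEDS and 2.60 and 2.14 with helveticoside. FSTL3 had a slope of 0.76 ± 0.09 with EEDS (adjusted p = 0.0146) and 0.75 ± 0.09 with helveticoside (adjusted p = 0.0185). ACVR2A, a type II activin receptor, had ratios of 2.20 and 1.86, with an adjusted p of 0.037 for EEDS and 0.061 for helveticoside. BAMBI, a pseudoreceptor that lacks the kinase and dampens the signal, fell by 1.54 and 1.58 on the log2 scale at the top doses, with slopes of -0.52 ± 0.12 (adjusted p = 0.0446) and -0.59 ± 0.12 (adjusted p = 0.0396).

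Of the 22 SMADs and regulators, SMURF1 and RNF111 rose and USP9X fell with both agents. In all, 4 rose with EEDS and 3 with helveticoside (7.26% and 5.49% of all genes). With each agent 2 fell, a share near that of all genes (7.85% and 5.81%). SMURF1, the closest relative of SMURF2, had top-dose log2 ratios of 1.84 and 2.01 and slopes of 0.59 ± 0.07 (adjusted p = 0.0144) and 0.66 ± 0.07 (adjusted p = 0.0165). RNF111 (Arkadia), the ubiquitin ligase that degrades SMAD7 and SKIL, had ratios of 1.12 and 0.99, with slopes of 0.35 ± 0.05 (adjusted p = 0.0165) and 0.34 ± 0.05 (adjusted p = 0.0218). USP9X, a deubiquitinase of SMAD4, was among the pathway genes that fell: its log2 signal went from 9.66 through 8.67 and 7.65 to 7.40 with EEDS and from 9.54 through 8.99 and 7.35 to 6.74 with helveticoside. Its slopes were -0.78 ± 0.13 (adjusted p = 0.0216) and -1.0 ± 0.13 (adjusted p = 0.0189). PPM1A, a phosphatase of SMAD2 and SMAD3, and EP300, a coactivator of SMADs, rose with EEDS (ratios 1.48 and 1.17). They did not pass with helveticoside (1.04 and 1.10). SP1, named after its values were seen, rose with helveticoside alone (ratio 0.88, slope 0.30, adjusted p = 0.0225). With EEDS SP1 had a ratio of 0.44 and did not pass (adjusted p = 0.0884). Named after their values were seen, 2 genes fell with 1 agent: TGIF1, a corepressor, fell with EEDS (ratio -1.30, adjusted p = 0.0206) and ZFYVE9 (SARA), an anchor of SMAD2 and SMAD3, with helveticoside (ratio -1.42, adjusted p = 0.0352). SMAD2 and SMAD4, the partners of SMAD3, were named after their values were seen, and had ratios of -0.60 and 0.66 with EEDS and -0.01 and 0.08 with helveticoside, none with a trend.

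Of the 21 target genes, 9 rose with EEDS and 9 with helveticoside and they were the same genes, among them CCN2, COL4A1, CDKN1A, JUNB, SNAI2, ITGA5, LIF and PDGFB, and 0 fell. Of all genes 7.26% and 5.49% rose. At the top doses of EEDS and helveticoside the log2 ratio was 3.12 and 3.14 for CCN2, a matricellular protein, 2.08 and 2.07 for COL4A1, a basement membrane collagen, and 1.55 and 1.81 for ITGA5, the fibronectin receptor chain. CDKN1A, the cell cycle inhibitor p21, had 3.23 and 2.52, JUNB, a subunit of AP-1, had 2.90 and 2.54, and LIF, a cytokine, had 3.07 and 2.27. PDGFB, a growth factor chain, had 3.50 with EEDS and at least 3.68 with helveticoside, where the control was not well above background. That bound holds within the normalization used here. Over the alternatives the PDGFB ratio was 2.75 to 4.48 with EEDS and 2.26 to 3.68 with helveticoside. SNAI2, a repressor of epithelial genes, was dim on both controls, and its bounds were at least 2.55-fold and at least 1.46-fold higher, although its measured values count it past 2-fold with both agents. The SNAI2 trend was at the threshold with helveticoside (adjusted p = 0.0499) and passed in 5 of 13 alternatives with EEDS and 2 of 13 with helveticoside, and its top-dose log2 ratio was as low as 0.40 and 0.33 in others. CDKN1A, JUNB and LIF are known targets of p53, growth factor and stress pathways as well.

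The targets without a trend had top-dose ratios in both directions. Chosen after their values were seen, TGFBI, an extracellular matrix protein named for its induction by TGF-beta, had log2 ratios of 0.07 and 0.02 at the top doses, TAGLN, an actin-binding protein, 0.28 and 0.45, and FN1, fibronectin, -0.69 and -1.57. PMEPA1, a TGF-beta-induced inhibitor listed with the regulators, had -0.25 and 0.48. None of these 4 passed the trend test. The median top-dose ratio of the 21 targets was 1.20 with EEDS and 0.71 with helveticoside, against 0.37 and 0.26 for the SMADs and regulators and 0.13 and 0.22 for the receptors and antagonists.

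**Figure D4:**
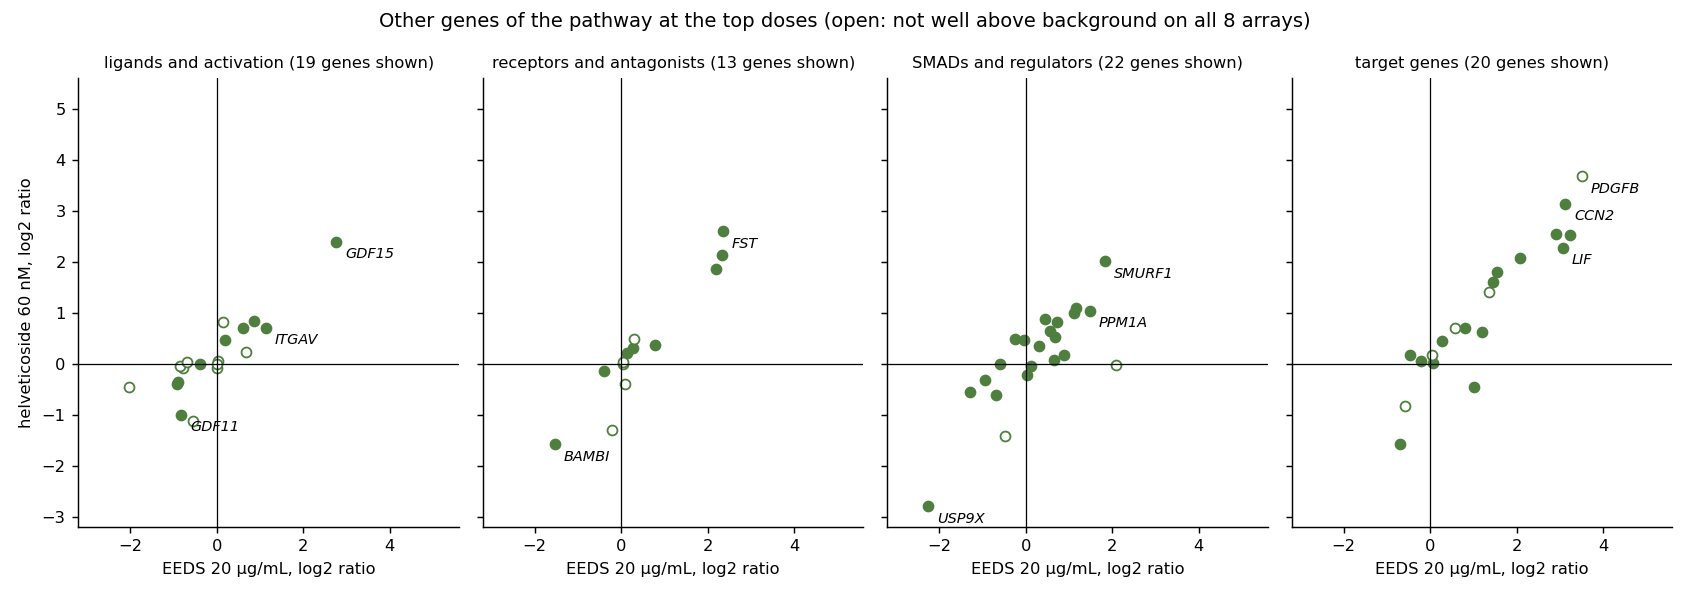
Log2 ratio at 20 μg/mL of EEDS (x axis) against that at 60 nM of helveticoside (y axis) for the other pathway genes shown, 1 point per gene at its measured values and 1 panel per list; open points were not well above background on all 8 arrays. CCN2 lies toward the upper right at 3.12 and 3.14 and USP9X farthest toward the lower left at -2.26 and -2.80.

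SKIL had the largest mean measured top-dose log2 ratio, 1.94. SMURF2 followed with a mean of 1.85 that is a lower bound only within the normalization used here, so their order is not settled. The genes most like SKIL over the 6 log2 ratios, searched among 11496 genes that cleared the background on all 8 arrays, were WHR1, CLK1, KHDC4, MORC3 and AK6, with root mean square differences of 0.14, 0.17, 0.18, 0.19 and 0.22 from it. Their top-dose ratios were 2.19 to 2.54 with EEDS and 1.20 to 1.78 with helveticoside, beside 2.38 and 1.5 for SKIL. No member had a mean fall over the top doses, the lowest mean being 0.00 for TGFBR2.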

How the data were processed

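A549 RNA was measured on 8 one-colour Agilent arrays, 1 per dose, mapped to agent and dose by the sample titles. The authors deposited scanner intensity values per spot (median signal, local background and a background-subtracted processed signal) and a table of processed intensity values, which by its values is median signal minus background, quantile-normalized within each series on a linear scale. The files give no slide or scan date. Here the processed signal was averaged over a probe's spots without control and outlier spots, quantile-normalized over 8 arrays and log2-transformed. Of 34127 probes, 22 with only outlier spots were left out, and 24809 matched 19053 genes by accession, named from RefSeq of GRCh38.p14; the brightest probe stood for a gene, and each member had 1 probe. A gene needed a median signal of 1.4 times the background on at least 1 array of each series, which left 19043; lower values were set to the higher of themselves and the array's lowest detected signal. Where the scanner software called 1 of the arrays compared not well above background, the ratio is a bound, within this normalization only. Where it called both so, none is given.

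The dose trends come from limma 3.58.1 in R 4.3.3 (eBayes with trend and robust options, statmod 1.5.0), with an intercept and slope per series, 4 residual degrees of freedom and Benjamini-Hochberg adjustment, after a test on simulated data; the spread is that around the lines, not between cultures. Promoters and figures used Python 3.11.15, pandas 2.3.3, numpy 2.4.6 and matplotlib 3.10.9.

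The members, lists and tests were chosen with earlier results of these data known. Named are all members, all genes of the lists with a trend for both agents and the 5 genes nearest to SKIL. Also named are the 4 genes of each list with the largest mean top-dose log2 ratio in either direction. These 4 were taken among genes that the scanner called well above background in the controls and at the top doses. Pathway genes given with values outside this rule are marked as named or chosen after their values were seen. Of 77 listed pathway genes USP11 and RNF165 were not matched, and the values of 1 target gene are not reported here. The alternatives were other background, scaling, filter, probe, control, dose, predictor, variance and fold settings.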

Additional observations from a re-analysis of the deposited data

How the results depend on the processing

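With 1 array per dose, the spread behind each trend is that of the arrays around straight lines, and the precision is limited by their number. No paired analysis was possible because each group had 1 array. Scaling to the 75th percentile gave all genes a median ratio of -0.20, -0.21 and -0.36 with EEDS, from the lowest dose up, and of 0.14, -0.12 and -0.18 with helveticoside, and the members' ratios are to be read relative to it.

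Over the alternatives, the top-dose log2 ratio of SKIL ranged from 2.01 to 2.49 with EEDS and 1.33 to 1.87 with helveticoside, that of SMAD7 from 1.45 to 1.71 and 1.4 to 1.65, that of SMAD3 from 1.18 to 1.54 and 1.05 to 1.52, and that of SMURF2 from 1.21 to 2.52 and 1.07 to 1.74. A 3-fold threshold left 3 members with EEDS and 1 with helveticoside. Of the 75 other pathway genes 45 and 37 passed a threshold of 1.5-fold and 15 and 15 one of 3-fold, against 26 and 24 at 2-fold. These counts hold changes in either direction. The share of all genes past 1.5-fold and 3-fold was not computed, so the counts at those thresholds do not set the members or the pathway apart.

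The trend calls need all doses of both series. Without the lowest, the middle or the top dose, and with only the 4 arrays of the series, 0 members, 0 pathway genes and 0 of all 19043 genes passed for either agent; these fits have fewer arrays. At an unadjusted p under 0.05 SMAD3, SMAD7 and SMURF2 had positive slopes for both agents in all 4 of these fits, as did 3.29% of all genes. With dose as a share of the top dose, 0 members passed for either agent. Of all 19043 genes 2166 still passed with EEDS and 788 with helveticoside, against 2878 and 2151 with the settings used above. Of the pathway genes 7 passed with EEDS and 1 with helveticoside, against 20 and 18. For helveticoside, 5 members passed with the signal as scanned, with normexp and among genes well above background on all arrays, 4 with scaling to the 75th percentile and 2 with the deposited values, where SMURF2 did not pass (slope 0.37, adjusted p = 0.064), against 3. The calls over all genes moved too, from 2151 of 19043 to 2579 as scanned, 2643 with normexp and 2481 with the 75th percentile. They were 2771 of 11496 among genes well above background and 1611 of 18975 with the deposited values. Slopes that turned sign had not passed the test. TGFB1 with EEDS turned to 0.01 (as scanned, normexp and without the middle dose), 0.05 (75th percentile) and 0.03 (dose share). TGFB3 turned to -0.04 (as scanned), -0.06 (normexp), -0.12 (75th percentile) and -0.14 (deposited values) with EEDS and to 0.02 (dose share) with helveticoside. TGFBR2 turned to -0.11 with EEDS and -0.14 with helveticoside without the top dose and to -0.05 with helveticoside without the lowest, and THBS1 with helveticoside to -0.07 without the top dose. SNAI2 passed in 5 of 13 alternatives with EEDS and 2 of 13 with helveticoside. The cause of these shifts was not tested.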
